A study of Mus musculus with 6 samples.

Results

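The adult and embryonic globin genes of the mouse were followed in bone marrow-derived mast cells (BMMCs) from BALB/c mice and from C57BL/6 mice. They were chosen by name, as 5 genes of the beta cluster (Hbb-bt, Hbb-bs, Hbb-bh1, Hbb-bh2 and Hbb-y) and 3 genes of the alpha cluster (Hba-a1, Hba-a2 and Hba-x), with an earlier analysis of the same libraries known, so their difference between the strains is given as a description without a test. All 8 were present, among 35297 genes to which the transcripts could be assigned. The study compared BMMCs grown from bone marrow of naive wild-type mice of both strains with SCF, TGF-β1, IL-9 and IL-3 in the medium, and RNA was taken on day 20. The strain was the only labelled difference, no other treatment or allele is given for these cultures, and the age of the donors is not given in the sources used here. There were 3 libraries of BALB/c (S9 to S11) and 3 of C57BL/6 (S12 to S14). The study calls them biological replicates, but nothing in the labels says whether the 3 came from separate mice. All p-values therefore measure only the spread between these libraries. The tissue is labelled bone marrow and the cell type mast cells. All 12 genes of a mast cell list were detected, at between 1.10 and 16293 TPM (a level per length of transcript, set to a fixed total per library).

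Haemoglobin is built from a pair of alpha and a pair of beta chains, each with a heme group, and is the main protein of red cells. The genes lie in separate clusters on different chromosomes, in each of which embryonic genes are used first and adult genes later, and each cluster is driven in red cell precursors by distant enhancers together with GATA1, KLF1 and TAL1. Inbred mice carry different versions of the adult beta pair. C57BL/6 has the s haplotype, with Hbb-bs and Hbb-bt, and BALB/c the d haplotype, with Hbb-b1 and Hbb-b2. No value of Hbb-b1 or Hbb-b2 enters the counts here, and neither gene was analysed here. The adult beta genes measured are those of the C57BL/6 haplotype, so a value of 0 for them in BALB/c, and any fold against it, gives no level of the adult beta genes that BALB/c carries. How reads of the BALB/c copies were assigned was not tested.

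In GRCm39 the beta genes lie on the minus strand of chromosome 7, with Hbb-bt at chr7:103461727-103465047, Hbb-bs at chr7:103475730-103482989, Hbb-bh2 at chr7:103488331-103489727, Hbb-bh1 at chr7:103490844-103492371 and Hbb-y at chr7:103500956-103502423. The alpha genes lie on the plus strand of chromosome 11, with Hba-x at chr11:32226400-32228116, Hba-a1 at chr11:32233186-32234504 and Hba-a2 at chr11:32246168-32247320. Each is annotated as protein-coding, and the main transcript of each has 3 exons.

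The adult genes of a cluster are near copies, which matters for every read assigned to them. The coding sequences of Hbb-bt and Hbb-bs were the same at all but 1 of 441 bases, and Hba-a1 and Hba-a2 at all but 1 of 426. The stretches around those positions are shown because they are the only coding bases by which the copies could be told apart. They are coding exon sequence in the sense of the gene, with the differing base in capitals, counted from 1 at the A of the start codon. The substitution from Hbb-bt to Hbb-bs was T417C (Hbb-bt at chr7:103461866-103461920 and Hbb-bs at chr7:103475875-103475929, both minus strand, coding positions 387 to 441), and from Hba-a1 to Hba-a2 it was C381T (chr11:32234313-32234373 and chr11:32247130-32247190, plus strand, coding positions 351 to 411).
Hbb-bt: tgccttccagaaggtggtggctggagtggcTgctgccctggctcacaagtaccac
Hbb-bs: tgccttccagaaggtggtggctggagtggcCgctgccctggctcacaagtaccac
Hba-a1: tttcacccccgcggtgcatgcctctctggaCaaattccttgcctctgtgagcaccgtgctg
Hba-a2: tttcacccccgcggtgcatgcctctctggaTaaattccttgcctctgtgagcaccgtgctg

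The transcripts differed more outside the coding part. Of the 674 words of 31 bases in the main Hbb-bt transcript, 400 (59.3%) also occurred in a transcript of Hbb-bs and in no other annotated gene. All 400 touched the coding part, whereas 0 of 97 words before it and 0 of 106 after it were shared. Of 708 words of Hba-a1, 608 (85.9%) occurred in some transcript of Hba-a2. Its main transcript held 586 of them, made up of 98 of 166 before the coding part, 425 of 456 touching it and 63 of 86 after it. Hba-a1 and Hba-a2 therefore had few words of their own in these sequences, and the value of either alone is uncertain. The main transcripts compared have 738 bases for Hba-a1 and 704 for Hbb-bt. Those to which reads were assigned have 569 and 646 bases, so the word counts describe their sharing only roughly. The embryonic genes Hbb-bh1, Hbb-bh2, Hbb-y and Hba-x shared 0 words with any other gene, and the coding sequence of Hbb-bt was 74.2% identical to that of Hbb-y, 73.7% to Hbb-bh1 and 70.3% to Hbb-bh2.

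**Figure D1:**
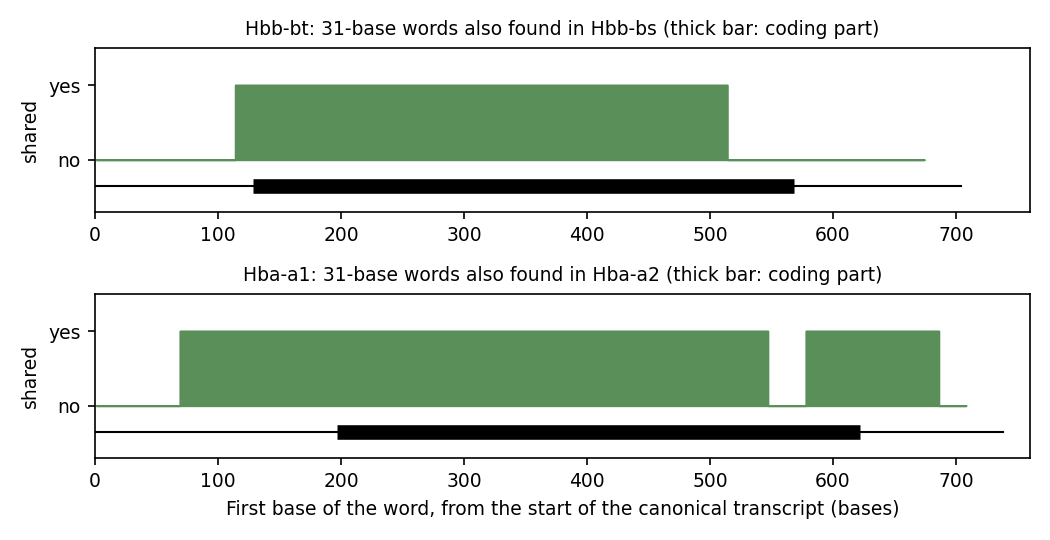
Words of 31 bases along the main transcript of Hbb-bt and of Hba-a1 (x axis, position of the word's first base in the transcript, in bases), marked where the same word occurs in the main transcript of the neighbouring adult copy, with the coding part drawn to scale. The shared words of Hbb-bt (400 of 674) all touch its coding part, and those of Hba-a1 (586 of 708) run through most of the transcript.

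The 120 bases before the start sites of the 3 adult genes with reads are shown because these genes differed in level. They come from RefSeq (GRCm38.p6, where 7 of the 8 genes had an entry, all but Hbb-bh1), and capitals mark, on either strand, the letters of the box CACCC, of the longer box CCACACCC that contains it, of the box CCAAT and of the box TATAA. Hbb-bt is at chr7:103813924-103814043 (minus strand), Hbb-bs at chr7:103827929-103828048 (minus strand) and Hba-a1 at chr11:32283552-32283671 (plus strand).
Hbb-bt: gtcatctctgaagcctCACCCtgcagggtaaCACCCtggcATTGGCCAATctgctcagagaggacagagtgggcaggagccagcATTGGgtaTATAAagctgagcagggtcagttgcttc
Hbb-bs: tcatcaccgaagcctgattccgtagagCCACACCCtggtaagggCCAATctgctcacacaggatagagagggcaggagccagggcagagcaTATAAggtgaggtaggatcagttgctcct
Hba-a1: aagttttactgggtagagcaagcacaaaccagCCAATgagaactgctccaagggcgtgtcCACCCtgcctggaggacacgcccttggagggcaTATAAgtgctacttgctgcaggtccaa

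In windows of 250 bases before to 50 after the start, CCACACCC, the box that KLF1 is known to bind in the adult beta promoter, was found in Hbb-bs alone of the 7, at 93 bases before the start, and in 3.56% of 32851 such windows. The shorter CACCC, which 57.5% of windows hold, began at 140, 104 and 89 bases before the start of Hbb-bt. CCAAT (37.4% of windows) and TATAA (24.9%) were found in Hbb-bt, Hbb-bs and Hba-a1, and GATAA (25.4%), the core of a GATA site, in all 7. These are matches of letters in the reference genome and say nothing of binding in these cells.

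Hbb-bt was the only globin gene with a sizeable number of reads, and it had them in C57BL/6 alone. It encodes an adult beta chain. The BALB/c libraries had 0, 0 and 0 reads, against 186 (S12), 160.5 (S13) and 214 (S14) in C57BL/6, where reads are estimated counts and need not be whole. After correction for library size these were 5.82, 5.91 and 6.05 CPM (counts set to a fixed total per library), with a mean of 5.93 ± 0.113 (SD, n = 3), and per length they were 16.5, 16.3 and 16.9 TPM (16.6 ± 0.326). The C57BL/6 libraries lay close to each other and the strains did not overlap, as in 61.9% of all tested genes.

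The scatter of Hbb-bt among the C57BL/6 libraries was small for so few reads. The coefficient of variation of the CPM was 1.90%, where counting alone gives 7.32% at the mean of 187 reads. The exact Poisson 95% intervals were 5.01 to 6.72 CPM in S12, 5.03 to 6.90 in S13 and 5.26 to 6.91 in S14, so no order among the 3 can be read. Such intervals cover counting error only. In BALB/c, 0 reads allow up to 3 counts per library, which is 0.0798 to 0.101 CPM, and against the mean of these floors the reads assigned to Hbb-bt were at least 64.7-fold higher in C57BL/6. With TPM, Hbb-bt ranked 4879 of 16052 genes with reads in S12, 4759 of 15812 in S13 and 4727 of 16040 in S14, so that 69.6% to 70.5% of genes with reads lay below it.

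**Figure D2:**
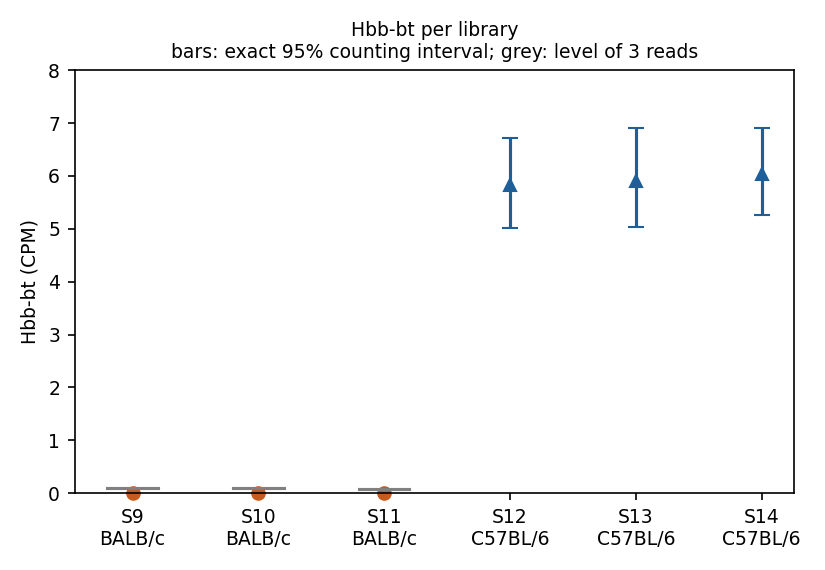
Hbb-bt in each library (CPM on the y axis, with exact Poisson 95% intervals for the C57BL/6 libraries and the floor of 3 counts for the BALB/c libraries). The 3 C57BL/6 libraries sit between 5.82 and 6.05 CPM with overlapping intervals, far above the BALB/c floors of 0.0798 to 0.101 CPM.

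Hbb-bs, the other adult beta gene of the C57BL/6 haplotype, had almost no reads. It was listed at 0 reads in 5 libraries and at 3.108 reads, or 0.307 TPM, in S13. Of the 564 reads on the adult beta pair in C57BL/6, 561 were assigned to Hbb-bt, which is 99.5% (Clopper-Pearson 95% interval 98.5% to 99.9%), and in S13 alone the share was 98.2% (94.7% to 99.6%). These intervals treat estimated reads as whole molecules and cover counting error only. The pair share most words, so the split rests on reads that hold the differing base or reach beyond the shared part. Their sum does not depend on the split and was 5.96 ± 0.124 CPM in C57BL/6 and 0 in BALB/c.

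The embryonic beta genes were at or near 0. Hbb-y, which encodes an embryonic beta-like chain, had 0, 0 and 0 reads in BALB/c and 3, 1 and 2 in C57BL/6, which is no more than the floor of 3 counts per library and gives no fold. Hbb-bh1, an early embryonic chain, and Hbb-bh2 were listed at 0 reads in all 6 libraries. At these depths a count of 0 allows up to 3 counts, from 0.0798 CPM in S11 to 0.111 CPM in S13.

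Hba-a1, which encodes the adult alpha chain, was the only one of the 8 genes with reads in BALB/c. It had 10, 10 and 7 reads in BALB/c and 5, 2 and 3 in C57BL/6. These were 0.314, 0.336 and 0.186 CPM against 0.156, 0.0739 and 0.0847 CPM, or 0.279 ± 0.0807 in BALB/c and 0.105 ± 0.0449 in C57BL/6 (SD, n = 3 each). The strains did not overlap, as in 61.9% of all tested genes. The direction was opposite to that of the reads assigned to Hbb-bt, whose 0 in BALB/c gives no level of the adult beta genes that BALB/c carries. The totals were 27 and 10 reads, a rate 2.57 times as high in BALB/c, which describes few reads and is no test. Hba-a2, the second adult alpha gene, and Hba-x, the embryonic zeta chain, were listed at 0 in every library. The sum of Hba-a1 and Hba-a2 was thus the value of Hba-a1, and which adult copy the reads came from cannot be told apart.

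The adult chains were far from equal in C57BL/6. The level per length of Hbb-bt was 31.3 times that of Hba-a1 in S12 (exact 95% interval 13.2 to 97.6), 67.4 times in S13 (18.3 to 559) and 60.1 times in S14 (20.3 to 294). Hba-a1 had only 5, 2 and 3 reads there, and these intervals cover counting error only, so the size of the ratio is known poorly. In BALB/c, Hba-a1 was at 1.21, 1.27 and 0.694 TPM and the beta genes of the C57BL/6 haplotype at 0, and no order of adult chains can be read there without Hbb-b1 and Hbb-b2. Below Hbb-bt in C57BL/6, Hba-a1 (0.350 ± 0.155 TPM), Hbb-y (0.179 ± 0.0856 TPM) and Hbb-bs (0.102 ± 0.177 TPM) did not differ from their neighbours in this order beyond their spread.

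**Figure D3:**
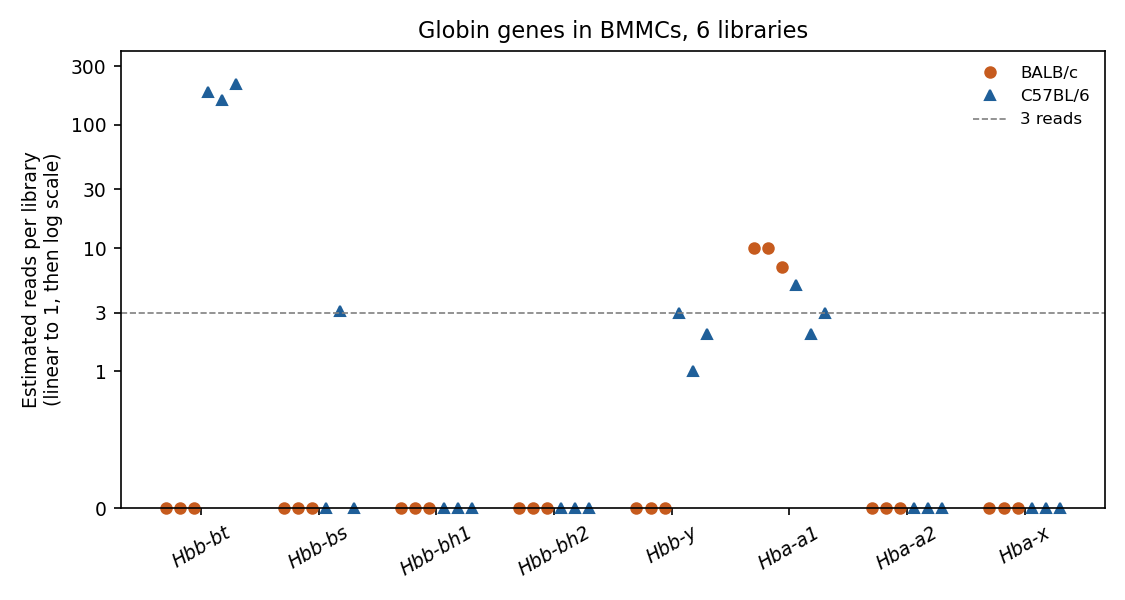
Estimated reads (y axis, linear to 1 and then a log scale) of each of the 8 globin genes, with a point for each of the 6 libraries and a dashed line at 3 reads. Hbb-bt holds 160.5 to 214 reads in the C57BL/6 libraries and 0 in the BALB/c libraries, no other gene exceeds 10 reads, and Hbb-bh1, Hbb-bh2, Hba-a2 and Hba-x are at 0 throughout.

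Of the 8 globin genes, 4 had reads and 4 did not. Hbb-bt alone passed the filter on low counts, which it did through its C57BL/6 libraries, so that it had to differ. In 3 of the 8, Hbb-bt, Hbb-y and Hba-a1, the values of BALB/c and C57BL/6 did not overlap. The same held for 61.9% of all 12461 genes tested, and 13.3% were called different (1653 genes, 963 or 7.73% higher and 690 or 5.54% lower in C57BL/6) at an adjusted p under 0.05 and more than 2-fold with edgeR's quasi-likelihood test. Nothing is read from the globin counts against these shares, since the genes were named with their strain contrast already known.

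The all-or-none pattern of Hbb-bt was then looked for in all 35297 genes. With at least 100 reads in every C57BL/6 library and 0 in every BALB/c library there were 6 genes, Adgra1, Cldn34c1, Dlc1, Hbb-bt, Pdzd2 and Vill, and 7 genes had the reverse. These cut-offs follow the known values of Hbb-bt, so the counts are a description and no rarity is read from them. Kmo, with 1, 2 and 1 reads in BALB/c, just missed the pattern. By the distance between log2(CPM + 0.5) values over the 6 libraries, the genes nearest to Hbb-bt were Cldn34c1 (distance 0.145, a claudin gene on chromosome X), Kmo (0.259, kynurenine 3-monooxygenase of tryptophan breakdown, chromosome 1), Pdzd2 (0.382, chromosome 15), the long non-coding Gm40108 (0.435, chromosome 3) and Cyp4f18 (0.460, a cytochrome P450, chromosome 8). None lies on chromosome 7 or 11. The likeness is a description over 6 libraries of groups that differ by strain. In bulk RNA, fewer cells of a type and less RNA per cell cannot be told apart, and this holds for each value here.

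The genes around the globin clusters were examined next, 10 on each side of each cluster. Of the 20 beta neighbours, 14 had transcripts in the tables, and all were olfactory receptor genes at 0 reads in every library. Of the 20 alpha neighbours, 17 had transcripts and 10 passed the filter, and edgeR's quasi-likelihood test called 0 of them different, against 13.3% of all genes. DESeq2 called 0 as well, and the median log2 fold change was -0.08. At an unadjusted p under 0.05 the count was 5, and the same number had an adjusted p under 0.05 with changes under 2-fold, near the 52.9% of all tested genes. Among these, named after their values were seen, Il9r, the receptor of the IL-9 in the medium, went from 49.8 ± 1.38 CPM in BALB/c to 37.7 ± 1.28 in C57BL/6 (log2 fold change -0.40 ± 0.04 SE, adjusted p = 7.1e-05), a fall. Nprl3, whose introns hold the alpha globin enhancers, rose slightly from 16.7 ± 1.08 to 19.3 ± 0.972 CPM (0.21 ± 0.07, adjusted p = 0.038). The others were Sh3pxd2b (0.59), Stk10 (-0.44) and Fbxw11 (0.17).

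Most genes that mark red cell precursors had too few reads to test. Of 24 such genes, 23 had transcripts and 9 passed the filter, of which 0 were called higher and 4 lower in C57BL/6, where 7.73% and 5.54% of all tested genes were called. DESeq2 also called these 4, of which Sptb passed the filter only through BALB/c, where it was high. At the adjusted p alone, and at an unadjusted p under 0.05, 5 of the 9 differed, 1 of them (Trim58) higher, where 52.9% of all tested genes passed the adjusted p. The median log2 fold change was -0.06 over the 9, against -0.01 over all tested genes. The other 14 had at most 5 reads in any library and no more than 0.128 TPM, and 5 of them had 0 reads throughout. Among the latter was Slc4a1, the anion exchanger of the red cell membrane. Alas2, the red cell form of the first heme enzyme, had 5, 2 and 2 reads in BALB/c and 1, 0 and 1 in C57BL/6. Hemgn, a nuclear protein of red cell precursors, went the other way, with 0, 0 and 1 reads in BALB/c and 4, 4 and 3 in C57BL/6, and was called higher when no filter was applied. Rhd, of the Rh blood group, had 0, 0 and 0 against 2, 2 and 0 reads. The summed level of the list was 415 to 466 CPM in the BALB/c and 271 to 289 CPM in the C57BL/6 libraries, and without Tfrc, the transferrin receptor, 197 to 215 CPM and 187 to 196 CPM.

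The 4 that fell were present at very different levels. Tfrc fell from 241 ± 23.6 to 86.4 ± 4.96 CPM (log2 fold change -1.48 ± 0.07 SE, adjusted p = 4.3e-07). Epor, the erythropoietin receptor, fell from 8.52 ± 1.16 to 3.46 ± 0.352 CPM (-1.30 ± 0.13, adjusted p = 4.3e-05). Klf1, the activator of the adult beta promoter, fell from 1.64 ± 0.349 to 0.497 ± 0.0849 CPM (-1.71 ± 0.26, adjusted p = 5.1e-04), and Sptb, the red cell beta spectrin, from 0.748 ± 0.196 to 0.170 ± 0.0931 CPM (-2.11 ± 0.43, adjusted p = 0.0029), all by edgeR's quasi-likelihood test. The strains did not overlap in any of the 4, as in 61.9% of all tested genes, and nothing is read from this for genes named because they were called. Sptb had 21, 29 and 23 reads in BALB/c and 2, 6 and 8 in C57BL/6, so it passed the filter only through the strain where it was high, and it was not tested at 10 counts in every library. The calls of Klf1 and Sptb were lost with limma on log2(TPM + 1), which compresses low values. The most abundant other members, Car2, a carbonic anhydrase (132 and 126 CPM), and Xpo7, a nuclear exporter (55.7 and 53.2 CPM), had log2 fold changes of -0.06 and -0.06. Trim58, a ubiquitin ligase of late red cell precursors, was at 3.50 ± 0.395 and 6.91 ± 0.627 CPM (0.99 ± 0.13, adjusted p = 1.6e-04), just under the 2-fold threshold, and crossed it without S9, S10 or S13.

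Most regulators of globin genes were expressed in both strains and few changed by more than 2-fold. Of 36 regulators, 32 passed the filter, 3 were called higher and 2 lower in C57BL/6 (15.6%, against 13.3% of all tested genes), and the median log2 fold change was 0.07. At the adjusted p alone, 20 of 32 differed, where 52.9% of all tested genes did. Klf1 is the first of the 2 that fell. Lyl1, a relative of TAL1, fell from 119 ± 5.17 to 55.9 ± 2.18 CPM (-1.09 ± 0.05, adjusted p = 1.8e-07). Sox6 and Bcl11a, repressors of embryonic globin genes, rose from 2.02 ± 0.339 to 6.75 ± 0.368 CPM (1.74 ± 0.14, adjusted p = 8.9e-06) and from 1.76 ± 0.717 to 3.50 ± 0.630 CPM (1.01 ± 0.28, adjusted p = 0.013), and Maff, a small partner of NF-E2 factors, from 0.612 ± 0.211 to 2.94 ± 0.335 CPM (2.28 ± 0.26, adjusted p = 7.9e-05). The call of Bcl11a sat at the 2-fold limit and was lost without S10, S11, S12 or S14, with the transcript length offset and with both limma fits, and the calls of Sox6 and Klf1 were lost with limma on log2(TPM + 1). The most abundant regulators were Gata2, the GATA factor of mast cells and progenitors (1548 and 1630 CPM, 0.07), Tal1 (410 and 418 CPM, 0.03), Chd4, a chromatin remodeller (283 and 254 CPM, -0.15), and Ikzf1 (198 and 172 CPM, -0.20). Gata1, named after its values were seen, fell from 158 ± 12.7 to 116 ± 4.09 CPM (-0.45 ± 0.06, adjusted p = 2.1e-04), less than 2-fold.

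Few heme and iron genes were called, about as large a share as of all genes. Of 36 genes, 33 passed the filter, 1 was called higher and 3 lower (12.1%, against 13.3% of all tested genes), with a median log2 fold change of -0.04. At the adjusted p alone, 7 were higher and 11 lower, near the 52.9% of all tested genes that passed it. Trf, transferrin, fell from 449 ± 37.8 to 15.5 ± 0.457 CPM (-4.85 ± 0.07, adjusted p = 2.2e-10). Alad, the second enzyme of heme synthesis, fell from 70.3 ± 2.82 to 27.4 ± 1.10 CPM (-1.36 ± 0.05, adjusted p = 5.9e-08), and the third was Tfrc, already given among the red cell precursor genes. Hebp1, a heme-binding protein, rose from between 8.26 and 11.3 CPM in the BALB/c libraries to 52.6 ± 2.10 CPM (2.39 ± 0.10, adjusted p = 1.2e-07). Ftl1 and Fth1, the ferritin chains that store iron, were the most abundant, at 3134 and 4376 CPM (0.48, adjusted p = 3.1e-05) and at 1003 and 1066 CPM (0.09, adjusted p = 0.063), followed by Ncoa4, the ferritin receptor of autophagy (312 and 365 CPM, 0.23).

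**Figure D4:**
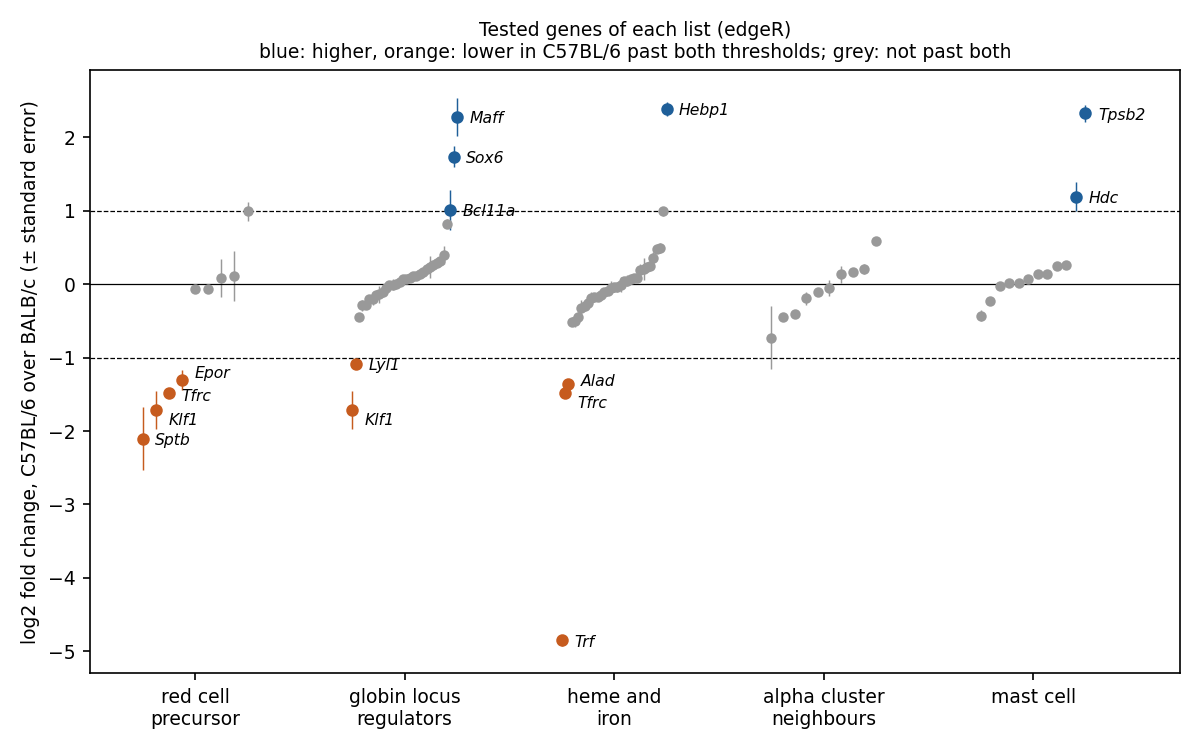
Log2 fold change (C57BL/6 over BALB/c, edgeR) of each tested gene of the red cell precursor, globin regulator, heme and iron, alpha cluster neighbour and mast cell lists, with bars for the standard error, dashed lines at 2-fold, and called genes in colour and named. In the red cell precursor list the 4 called genes, Klf1, Epor, Sptb and Tfrc, are all lower in C57BL/6, and 0 of the 10 neighbours are called.

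Markers of other cells that bone marrow cultures can hold are given for comparison. Mast cell genes were detected in all libraries, mostly at high levels, with a summed level of 33515 to 36578 CPM in BALB/c and 36669 to 38809 CPM in C57BL/6. All 12 passed the filter, the median log2 fold change was 0.10, and 2 were called higher by edgeR's quasi-likelihood test (16.7%, against 7.73% of all tested genes called higher and 13.3% called in either direction). They were Tpsb2, a tryptase (1032 and 5167 CPM, log2 fold change 2.32, adjusted p = 5.2e-07), and Hdc, the enzyme that makes histamine (2.35 and 5.34 CPM, 1.19, adjusted p = 7.4e-04), whose call was lost with both limma fits. At the adjusted p alone, 6 were higher and 2 lower (Cma1 and Mitf), where 52.9% of all tested genes passed it. The granule proteases Cpa3 and Cma1 were at 11394 and 11238 CPM (-0.02) and at 9895 and 7347 CPM (-0.43, adjusted p = 0.0011). Fcer1a, the IgE receptor chain, was at 3308 and 3625 CPM (0.13, adjusted p = 0.013). Hbb-bt, at 16.6 TPM, stood next to Mitf, a mast cell transcription factor, at 17.5 TPM, and above Hdc at 3.01 TPM in C57BL/6.

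Of 10 macrophage genes, 2 passed the filter, and both were called higher, where 7.73% of all tested genes were. Adgre1, the F4/80 antigen, rose from 0.309 ± 0.271 to 9.91 ± 0.399 CPM (4.93 ± 0.39, adjusted p = 7.6e-06). With 16, 0 and 16 reads in BALB/c, it passed the filter only through C57BL/6, where it was high. Cd68, a lysosomal protein, rose from 0.913 ± 0.213 to 3.71 ± 0.434 CPM (2.01 ± 0.20, adjusted p = 3.5e-05). The other 8 had at most 2 reads in any library, 5 of them 0, and the summed level was 0.705 to 1.63 CPM in BALB/c and 13.3 to 13.9 CPM in C57BL/6. Of 12 megakaryocyte and platelet genes, 5 passed the filter, with a median log2 fold change of 0.58. Gp5 (1.06) and Vwf (1.17) were called higher and Gp1bb (-1.89) lower, 3 of 5 against 13.3% of all tested genes. At the adjusted p alone, 3 were higher and 2 lower, where 52.9% of all tested genes passed it. Gp1ba, among the most abundant of the list, was lower by less than 2-fold, at 303 and 241 CPM (-0.33, edgeR's quasi-likelihood adjusted p = 8.5e-04). Gp1bb passed the filter only through BALB/c, where it was high (10.9, 30.4 and 25.8 reads, against 1.21, 6.61 and 8.82). Itga2b, an integrin chain that mast cells also make, was at 1121 and 1680 CPM, and the summed level of the list was 1514 to 1542 CPM and 2076 to 2192 CPM. Of the other 7, which had at most 2 reads, 5 were at 0, and Pf4, platelet factor 4, was among those with reads. The part of such cells in the Hbb-bt reads was not tested.

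**Figure D5:**
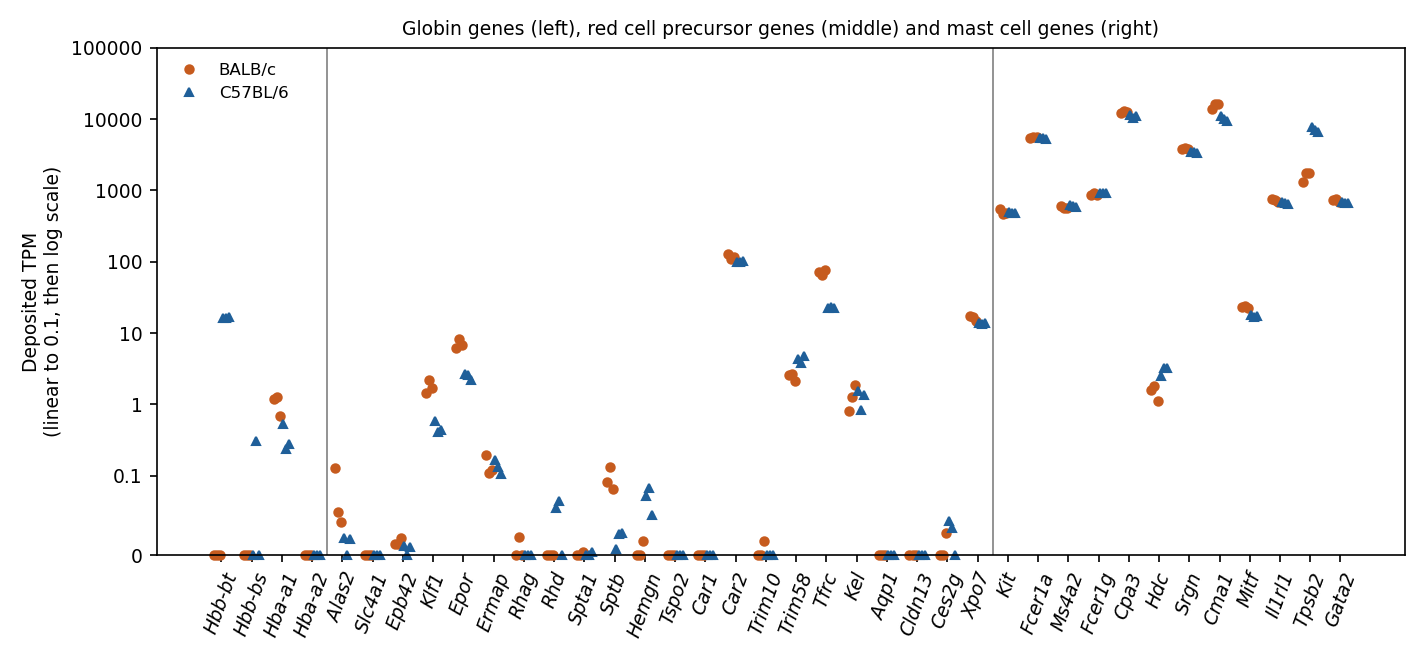
Deposited TPM (a level per length, log scale above 0.1) of the adult globin genes beside genes of the red cell precursor list (all but 1 of those in the tables) and of the mast cell list, with a point for each library of BALB/c (circles) and C57BL/6 (triangles). Hbb-bt at 16.6 TPM in C57BL/6 lies among the less abundant mast cell genes, and the untested red cell precursor genes stay at or below 0.128 TPM.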

How the data were processed

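The authors prepared stranded mRNA libraries, checked reads with FastQC 0.11.5 and quantified transcripts with Salmon 0.8.2 (submitters' processing notes). They deposited, for 129698 RefSeq transcripts in each of 6 libraries, estimated counts, which need not be whole, and TPM values (counts divided by effective length and scaled to a fixed total). A read that fits several transcripts is split between them, which bears on the adult globin copies. Without their version, 106440 accessions (82.1%) matched a RefSeq gene table of GRCm38.p6, used for names. Unmatched transcripts held 2.69% to 3.12% of reads and were left out. Loci and transcript sequences come from the GENCODE annotation of GRCm39. For tests, the estimated counts of a gene's transcripts were added up and rounded.

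Between 28273365 and 37100869 reads per library lay on genes. Replicate libraries differed by more than counting noise (chi-square per degree of freedom 6.60 to 13.6), so each counted as a sample. Genes were tested in R 4.3.3 with the quasi-likelihood test of edgeR 4.0.16, TMM normalization (factors 0.940 to 1.05), a minimum count of 10, strain as the only term and Benjamini-Hochberg adjustment over 12461 genes; a gene was called at an adjusted p under 0.05 and more than 2-fold. The biological coefficient of variation was 0.0665. CPM use the TMM-corrected sizes. On simulated counts of the C57BL/6 against BALB/c comparison, with 200 of 12461 genes changed 4-fold, all 200 were found by edgeR and 194 by DESeq2, with 0 false calls in either. Every simulated gene was given the common dispersion. This makes a false call past 2-fold unlikely and does not test genes with a larger spread. Alternatives were DESeq2 1.42.0, its size factors, a length offset, plain library size, other filters, limma 3.58.1 on TPM values (log2 with a pseudocount of 1 or 0.1), summed globin copies and each library left out. Exact intervals used scipy 1.17.1.

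The globin genes and the gene lists were chosen with earlier results of these data known. Named are the 8 globin genes and the other globin family genes, list genes called at both thresholds, up to 4 of each list with the highest mean CPM, and the 5 genes nearest to Hbb-bt. Lung samples and other readouts of the study were not analysed here. Chosen outside this rule, after their values were seen, were Trim58, Slc4a1, Alas2, Hemgn, Rhd, Pf4, Mitf, Gata1, Hmox1, Adgra1, Dlc1, Vill and the alpha cluster neighbours. The values of 1 other gene of the red cell precursor list are not reported here.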

Additional observations from a re-analysis of the deposited data

How the results depend on the processing

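Of 99 alternative values, 88 stayed within the spread or within 1.5 times the count, and 11 moved. A reversal could be recorded only for the fitted change of Hbb-bt, which had 0 reads in BALB/c and could not reverse. The mean Hbb-bt level in C57BL/6, 5.93 CPM, was 5.63 with plain library size and 16.6 as deposited TPM, which is another unit. With limma on log2(TPM + 1), 2 red cell precursor genes, 2 globin regulators, 1 mast cell gene and 799 of all genes were called, and with log2(TPM + 0.1) 1 mast cell gene. A filter of 10 counts in every library left 1017 calls among all genes. Leaving out each library in turn gave 4 to 5 red cell precursor calls, 4 to 5 regulator calls, 4 to 5 heme and iron calls, 0 neighbour calls, 2 mast cell calls, and 1663 to 1777 calls among all genes. Leaving out each C57BL/6 library gave 5.87 to 5.98 CPM for Hbb-bt. The fitted log2 fold change of Hbb-bt, which had 0 reads in BALB/c, depends on the prior and pseudocount and is no bound. It was 10.58 with edgeR, 10.06 with DESeq2, 7.38 with limma on log2(TPM + 0.1) and 4.13 with log2(TPM + 1). Bcl11a lost its call with the length offset and both limma fits, Hdc with both limma fits, Klf1 and Sox6 with log2(TPM + 1). Sptb lost its call with both limma fits and with the stricter filter, Hmox1 gained one without S11 or S13, and Hemgn gained one with no filter on low counts.

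No paired analysis was possible because the labels give no replicate numbers that the strains share. The number of reads limits the values of Hba-a1, Hbb-y and Hbb-bs, and shared sequence limits the split within each adult pair.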

Other observations

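Other members of the globin family were at or near 0. Ngb, neuroglobin, a globin of nerve cells, had 1, 1 and 1 reads in BALB/c and 4, 1 and 1 in C57BL/6. Hbq1a and Hbq1b, the theta genes of the alpha cluster, Cygb, cytoglobin of connective tissue cells, and Mb, myoglobin of muscle, were listed at 0 reads in all 6 libraries.

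Among the heme and iron genes that missed the 2-fold threshold, Hmox1, the enzyme that breaks down heme, named after its values were seen, was at 45.4 ± 4.11 CPM in BALB/c and 90.5 ± 1.15 in C57BL/6 (log2 fold change 0.99 ± 0.06 SE, edgeR's quasi-likelihood adjusted p = 1.5e-06), higher in each C57BL/6 library than in every BALB/c library.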
